A study of Mus musculus with 9 samples.

Results

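The genes described are the histone genes of the mouse, chosen by name: every gene of the deposited count table whose symbol starts with Hist1h to Hist4h, H2af, H3f or H1f, 84 of 24421 genes in all. They comprise 68 genes with Hist symbols, called replication-dependent histones, and 16 variant histone genes. RNA was sequenced in 9 libraries, 3 per group, from the brains of C57BL/6 mice. The following account of the cells comes from the text of the study, which speaks of 2 samples per group and so may not describe all of these libraries. Control and BAL101553 samples were SB28 glioma cells, a mouse tumor line carrying green fluorescent protein and luciferase, implanted in the brain of mice 6 to 8 weeks old and sorted as cells negative for CD45 and CD11b and positive for the fluorescent protein. Control mice in that account received vehicle and were harvested on day 21, and the other mice received BAL101553, an oral prodrug that activates the spindle assembly checkpoint, and were harvested on day 33 or day 35, since the text of the study gives both; drug and day therefore cannot be told apart. The labels call the material of both groups whole tissue. The third group is labelled astrocytes with the treatment BAL101553 and is not described in the text of the study, so how these cells were isolated and when they were harvested is not known. Whether animals were pooled was not given.

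Histones are the proteins around which DNA is wound: 2 copies each of H2A, H2B, H3 and H4 form the core of a nucleosome, and the linker histone H1 sits on the DNA between cores. Replication-dependent histone genes lie in clusters, mostly lack introns and are transcribed while DNA is copied in S phase. Their mRNAs end just after a short stem-loop, bound by the protein SLBP, in place of a poly(A) tail, although some of these genes also give longer, polyadenylated transcripts in cells that do not divide. Most variant histones are made throughout the cell cycle from genes with ordinary polyadenylated mRNAs, and variants take the place of the standard histones at particular sites.

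Of the replication-dependent genes, 54 lie on chromosome 13, 10 on chromosome 3, 3 on chromosome 11 and 1 on chromosome 6; the variant genes are scattered over 9 chromosomes. All 84 were found by symbol in GENCODE vM21 on GRCm38. A match to the 16-base histone stem-loop, searched on the transcript strand after the stop codon, was found in 46 of the 68 replication-dependent genes and, among the variants, in H2afx, against 0.206% of 19437 other genes. The matches were grouped by where the annotated transcript ends. For 23 genes it ended within 100 bases of the stem-loop, and for 23 it ran 100 bases or more past it. Of the remainder, 17 ended shortly after the stop codon with no match, 4 ran on for 100 bases or more with no match, and 1 was a pseudogene. The poly(A) signal AATAAA, searched on the same strand, stood in the last 50 bases of a coding transcript in 10 of the 23 genes that ran past the stem-loop, in 1 of the 23 that ended at it and in 3 of the 4 long ones with no match, against 65.9% of 21795 other coding genes.

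The stem-loops of genes that carry the results below are given 5′ to 3′ on the transcript strand with the match in capitals and 5 bases on either side, from GENCODE vM21 transcripts; the coordinates are those of the capitals on GRCm38. They are shown because near-identical stem-loops stand in genes of very different level here; in 6 of the 8 genes the annotated transcript runs 100 bases or more past it. The arms of Hist1h1c, Hist3h2a, Hist3h2ba, Hist1h2be and Hist1h3b are identical, a form found in 26 of the 47 genes with a match, and Hist1h4h and Hist1h4j carry 2 forms found in H4 genes. The last, in H2afx, was found in no other member.
Hist1h1c (chr13:23739512-23739527, plus strand): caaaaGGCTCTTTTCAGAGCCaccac
Hist3h2a (chr11:58955172-58955187, plus strand): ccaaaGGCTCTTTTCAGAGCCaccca
Hist3h2ba (chr11:58949349-58949364, plus strand): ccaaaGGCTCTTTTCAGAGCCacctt
Hist1h2be (chr13:23585531-23585546, minus strand): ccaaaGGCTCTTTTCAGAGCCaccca
Hist1h3b (chr13:23752820-23752835, plus strand): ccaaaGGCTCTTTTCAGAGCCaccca
Hist1h4h (chr13:23531458-23531473, plus strand): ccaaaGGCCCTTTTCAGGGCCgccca
Hist1h4j (chr13:21735437-21735452, plus strand): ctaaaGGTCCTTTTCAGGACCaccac
H2afx (chr9:44335240-44335255, plus strand): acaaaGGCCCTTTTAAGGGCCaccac

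The annotated transcripts of these genes continued past the stem-loop for 840 bases in Hist1h1c, 1643 in Hist3h2a, 169 in Hist3h2ba, 1861 in Hist1h2be, 51 in Hist1h3b, 46 in Hist1h4h, 385 in Hist1h4j and 822 in H2afx. A poly(A) signal stood near the annotated end of Hist1h1c, Hist3h2a, Hist3h2ba and Hist1h4j, and of Hist2h2be, which has no match and 2192 bases after its stop codon. The sites of 4 of these genes are given because the genes were among those with the highest levels or the largest differences below, with the signal in capitals and the coordinates of the whole stretch.
Hist1h1c (chr13:23740330-23740359, plus strand): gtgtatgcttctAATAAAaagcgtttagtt
Hist3h2a (chr11:58956785-58956814, plus strand): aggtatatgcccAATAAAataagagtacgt
Hist3h2ba (chr11:58949495-58949524, plus strand): cataatggtattAATAAAtttggttcaatt
Hist2h2be (chr3:96223705-96223734, plus strand): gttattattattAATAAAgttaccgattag
Both kinds of site lie in exons, after the stop codon.

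The libraries held 22919523 to 34013875 counts. Libraries of each group differed by more than sampling noise (a chi-square of 14.3 to 64.9 per degree of freedom over genes), so none was counted as a repeat of another; whether they came from separate mice is not stated, and p-values measure only the spread between these libraries. Whether poly(A) RNA was selected before sequencing is not stated, and a selected library would hold few transcripts that end at a stem-loop. The libraries labelled astrocytes held astrocyte markers at a summed level of 12380 to 15150 CPM (counts relative to library size, with the TMM factors of edgeR over the 9 libraries), against 671.0 to 965.3 in the tumor libraries. Most of that tumor sum was Gja1, at 640.5 to 919.4 CPM. The labelled astrocytes also held oligodendrocyte markers at 10500 to 13040 CPM, against 15.1 to 20.5, and microglia and macrophage markers at 437.2 to 945.2 CPM, against 2.06 to 4.51. Endothelial markers summed to 168.1 to 194.8 CPM there, against 511.0 to 852.2 in the tumor libraries, where most came from Cdh5. Neuron markers summed to 33.68 to 41.39 CPM against 28.15 to 58.27, and most of the sum in both was Tubb3. Snap25 stood at 4.856 to 5.172 CPM in the labelled astrocytes against 0.0447 to 0.338 in the tumor libraries. Rbfox3 stood at 0.919 to 1.233 against 0, and Slc17a7 at 0.848 to 1.198 against 0 to 0.0782, while Syt1 and Gad1 overlapped. T cell markers summed to 1.135 to 2.227 CPM against 0 to 0.0834. The part of other cell types in the differences between the labelled astrocytes and the tumor cells was not tested. In bulk RNA, fewer cells of a type and less RNA per cell cannot be told apart.

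Replication-dependent histones gave few reads. Of all 84 members, 13 had 0 counts in every library and 40 reached 10 counts in at least 1 library. The 68 replication-dependent genes together had 1921 to 2852 counts in the control libraries, 2201 to 2922 in the BAL101553 libraries and 4398 to 5396 in the labelled astrocytes, at most 0.0205% of a library. The 16 variant genes had 26611 to 43120 counts, from 0.108% to 0.137% of a library. Of 8 members whose expression is known mainly from germ cells, 5 had 0 counts and no other had more than 4 counts over the 9 libraries.

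Genes with a stem-loop match were compared by annotated end. Of the 23 that ran past the stem-loop, 16 reached 10 counts in some library, and of the 23 that ended at it, 8 did. Summed over each class, the first had 47.0 ± 7.69 CPM in control, 37.6 ± 5.41 in BAL101553 and 79.5 ± 5.65 in labelled astrocytes (SD, n = 3 each), and the second 3.91 ± 1.05, 2.95 ± 0.239 and 5.87 ± 1.19 CPM. Hist1h1c alone gave 33.8 of the 47.0 CPM in control. Per kilobase of annotated exon, the first class summed to 32.5, 25.3 and 52.1 CPM per kb in the 3 groups. The second summed to 7.85, 5.78 and 12.1. Without Hist1h1c the first class summed to 10.8, 7.45 and 28.4 CPM per kb. In labelled astrocytes Hist1h4h alone gave 9.51 of the 12.1 CPM per kb of the second class. The 4 genes with a long end and no match summed to 44.6 ± 9.68, 42.0 ± 6.39 and 80.8 ± 5.65 CPM, all of it from Hist1h2bc and Hist2h2be, the other 2 being at 0. Reads of near-identical copies also bear on these levels: at 50 bases, the length of the reads, a median of 59.4% of the positions of the genes ending at the stem-loop were also found in a transcript of another gene, against 24.6% for those running past it and 6.40% for the variants. How multiply mapped reads were counted is not given in the sources used here, and members with much shared sequence are uncertain.

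**Figure D1:**
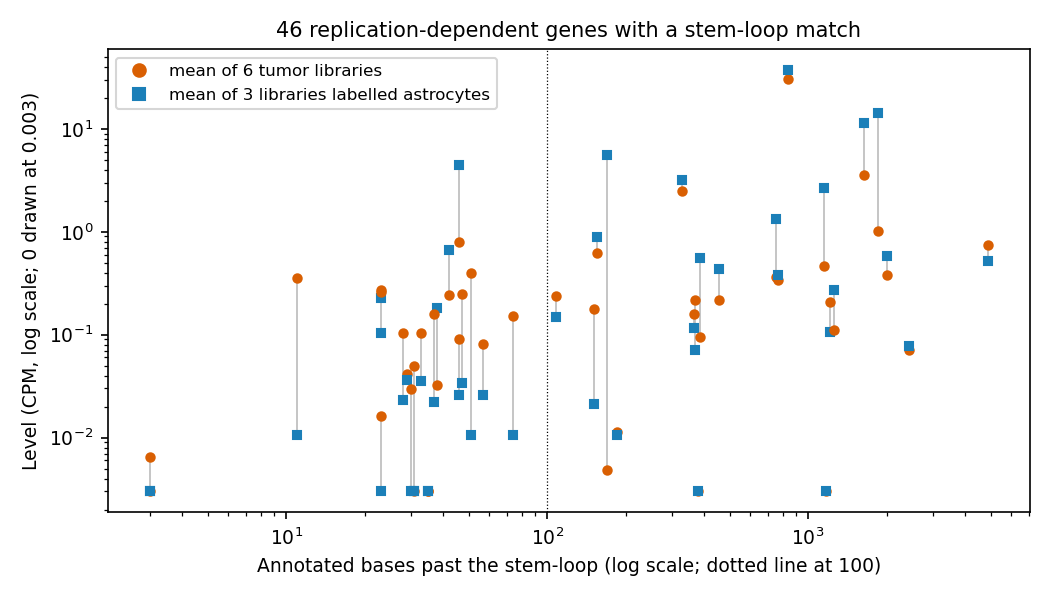
Mean level of each of the 46 replication-dependent genes with a stem-loop match (vertical axis, CPM, log scale, with 0 drawn at 0.003) against the number of annotated bases past the stem-loop (horizontal axis, log scale), for the 6 tumor libraries (circles) and the 3 libraries labelled astrocytes (squares), joined per gene by a grey line. Left of the dotted line at 100 bases no gene averaged over 5 CPM, and right of it Hist1h1c averaged over 25 CPM in both kinds of library.

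Most replication-dependent counts came from a pair of genes. Hist1h2bc, an H2B gene on chromosome 13 whose longest annotated transcript has 2 exons, and Hist1h1c, a linker histone gene, held 73.8% to 81.8% of the replication-dependent counts in the tumor libraries and 55.9% to 57.4% in the labelled astrocytes. Hist1h2bc stood at 33.1, 37.7 and 52.0 CPM in the 3 control libraries, 31.3, 42.4 and 43.8 in the BAL101553 libraries and 59.95, 52.9 and 62.5 in the labelled astrocytes. Hist1h1c stood at 30.2, 29.6 and 41.6 CPM in control, 26.9, 33.1 and 23.4 in BAL101553 and 37.8, 34.7 and 38.7 in labelled astrocytes. For both genes the control and BAL101553 libraries overlapped, and control 3 was the highest of the 6. Each of the other replication-dependent genes averaged under 5 CPM in control.

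Per kilobase of annotated exon, the scale on which levels of different genes can be compared, H2afz led the members in control with 189.4 CPM per kb, ahead of H3f3b with 140.3, H1f0 with 96.9, H3f3a with 81.8 and H2afx with 49.5. Hist1h2bc followed with 35.4 CPM per kb and Hist1h1c with 21.7, with the variants H2afv at 17.9, H2afj at 15.8, H2afy at 14.8 and H1fx at 2.76. In BAL101553 the same 7 genes came first in the same order. The order depends on the length used: per kilobase of the longest coding transcript, H2afy stood at 49.1 CPM per kb in control, above Hist1h2bc, and H3f3a at 100.9, above H1f0. In labelled astrocytes H3f3b led with 127.1 CPM per kb, followed by H1f0 with 76.7, H3f3a with 64.8, Hist1h2bc with 50.6 and H2afz with 36.1, and H2afx stood at 8.50.

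The first comparison asked what BAL101553 treatment, with its later harvest, went with in the tumor cells. No histone gene passed the test. Of the 24 members with enough counts (15 replication-dependent, 9 variant), 0 passed an adjusted p of 0.05 (quasi-likelihood test of edgeR, Benjamini-Hochberg correction across 12633 genes). Of those genes, 14.7% were called, 8.64% higher and 6.09% lower. At an unadjusted p of 0.05 there were 4 of 24, H2afj, H2afx, H2afy and Hist3h2a, all with the lower mean in BAL101553. Of all genes tested 34.1% passed it, 15.7% lower and 18.4% higher, so 4 lower of 24 is near the share of all genes. DESeq2's Wald test and edgeR's exact test each called 1 member, H2afj, beside 22.4% and 19.7% of all genes tested.

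Most fold changes were below 0. The log2 fold change was negative for 20 of the 24 members, against 48.5% of all genes tested, and for each of the 9 variants. Its median was -0.37 over the 15 replication-dependent genes and -0.16 over the 9 variants, beside 0.02 over all genes tested. For 7 members all 3 BAL101553 libraries lay under all 3 control libraries, against 19.7% of all genes, and for 0 members did they lie above, against 20% of all genes. With offsets for transcript length and GC content, 17 of the 24 were below 0.

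**Figure D2:**
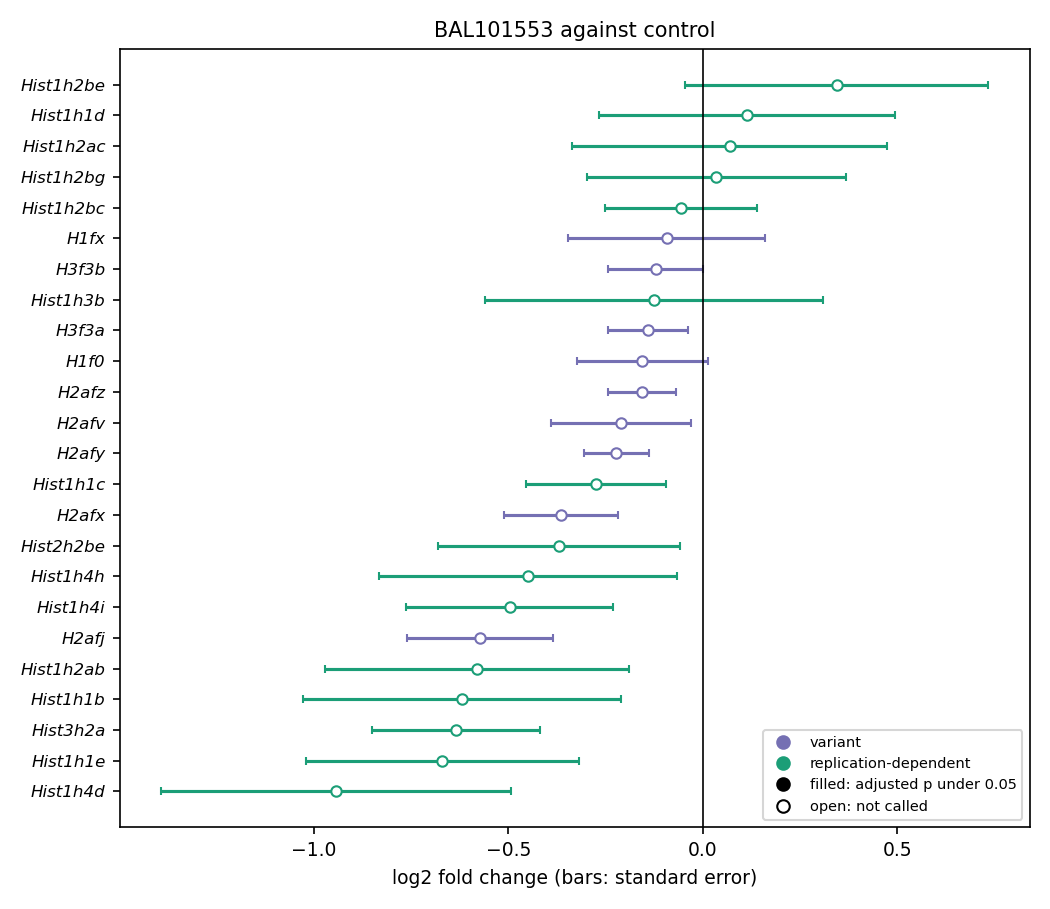
log2 fold change of each of the 24 members tested in BAL101553 against control (horizontal axis, points, with bars for the standard error), sorted, with replication-dependent genes in green and variants in purple. All points are open because none was called, and 20 lie left of 0.

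The variant with the lowest p was H2afj, an H2A variant. It stood at 24.2, 28.1 and 34.4 CPM in control and at 19.8, 15.1 and 22.94 in BAL101553. Every BAL101553 library was below every control library, with a log2 fold change of -0.57 ± 0.19 (SE) and an adjusted p of 0.0754 (edgeR quasi-likelihood test, Benjamini-Hochberg). It was called in 3 of 27 alternative fits, DESeq2, the exact test and the model over all 9 libraries, where its adjusted p was 0.0265, 0.0423 and 0.0443.

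H2afx encodes H2A.X, the variant that is phosphorylated beside DNA breaks. It stood at 72.5, 61.2 and 71.8 CPM in control and at 42.9, 62.5 and 53.2 in BAL101553. The groups overlapped by 1 library, BAL101553 2, and the log2 fold change was -0.37 ± 0.15 with an adjusted p of 0.124 by the same test. H2afx was called in 2 of 27 alternatives, both of which left out BAL101553 2, the library that overlapped. Without BAL101553 2 the change was -0.50 with an adjusted p of 0.0464 (edgeR quasi-likelihood). Without control 2, the lowest control library, as well it was -0.58 with an adjusted p of 0.0365 by the same test. Leaving out the libraries nearest the other group widens the gap by itself, so these 2 calls are not added evidence.

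H2afy encodes macroH2A1, a large H2A variant found on silent chromatin. It stood at 102.0, 101.5 and 98.1 CPM in control and at 79.8, 90.4 and 86.9 in BAL101553, with no overlap, a log2 fold change of -0.22 ± 0.08 and an adjusted p of 0.107 by the quasi-likelihood test of edgeR. The remaining variants overlapped between the groups. H2afz, which encodes H2A.Z, a variant at gene starts, stood at 336.3 ± 20.5 CPM in control and 300.4 ± 11.6 in BAL101553 (SD, n = 3). H2afv, which encodes a second form of H2A.Z, stood at 29.2 ± 4.08 and 25.1 ± 5.58 CPM.

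H3f3a and H3f3b encode the same protein, H3.3, which is laid down outside replication. H3f3a stood at 286.6 ± 4.25 CPM in control and 258.6 ± 29.4 in BAL101553, and H3f3b at 417.4 ± 28.6 and 381.6 ± 53.2 CPM. H1f0, the linker histone of resting and differentiated cells, stood at 199.1 ± 45.0 and 177.9 ± 15.99 CPM. H1fx, another linker variant, stood at 3.36 ± 0.606 and 3.13 ± 0.673 CPM. H2afy2, which encodes macroH2A2, had only 3, 9 and 10 counts in control and 3, 6 and 2 in BAL101553 and was not tested here. Summed over the 16 variants, the level was 1470 ± 6.14 CPM in control and 1305 ± 62.1 in BAL101553, a ratio of 0.888 with no overlap between the groups. The sum is led by H3f3b, H2afz, H3f3a and H1f0, and it was given no test.

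Among replication-dependent genes, Hist3h2a, an H2A gene on chromosome 11, had the lowest p. It stood at 5.004, 4.13 and 3.92 CPM in control (112, 111 and 94 counts) and at 2.46, 3.17 and 2.73 in BAL101553 (73, 81 and 94 counts). All BAL101553 libraries lay below all control libraries, with a log2 fold change of -0.64 ± 0.22 and an adjusted p of 0.0831 (edgeR quasi-likelihood). It was called in 1 of 27 alternatives, the model over all 9 libraries, at an adjusted p of 0.0314.

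Hist1h4i, an H4 gene, stood at 2.73, 2.53 and 3.59 CPM in control and at 2.23, 2.39 and 1.63 in BAL101553. The groups did not overlap, and the log2 fold change was -0.50 ± 0.27 with an adjusted p of 0.227 by the quasi-likelihood test of edgeR. Hist2h2be, an H2B gene on chromosome 3, overlapped at 3.35, 4.36 and 3.25 against 3.54, 1.68 and 3.19 CPM. Hist1h2be, an H2B gene on chromosome 13, had the highest fold change of the 24 members tested, 0.34 ± 0.39 on the log2 scale, on 13 to 32 counts in control and 25 to 49 in BAL101553, with overlap and an adjusted p of 0.567 (edgeR quasi-likelihood). Hist1h4h, an H4 gene, overlapped at 15 to 31 against 15 to 27 counts. The linker histone genes Hist1h1d and Hist1h1b and the H2B gene Hist1h2bg overlapped too, at 16 to 20 against 13 to 29 counts, 11 to 19 against 9 to 16, and 13 to 18 against 14 to 25.

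By histone family, the replication-dependent H2A genes summed to 6.39, 5.58 and 6.17 CPM in control and 3.58, 4.69 and 4.18 in BAL101553, and the H4 genes to 5.76, 5.06 and 6.88 against 3.75, 4.11 and 3.31 CPM, both without overlap. Sums for H1, H2B and H3 overlapped, and so did the sum over the 68 genes, 97.8 ± 18.3 against 83.8 ± 9.05 CPM (SD, n = 3). With a filter of at least 1 count in any library, 70 members were tested and again 0 were called, against 6.36% of 17318 genes called higher and 4.34% lower. Standard errors of the 15 replication-dependent genes tested ran from 0.18 to 0.45 on the log2 scale; they include the spread between libraries, and a change of -0.64 ± 0.22, in Hist3h2a, was not called.

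**Figure D3:**
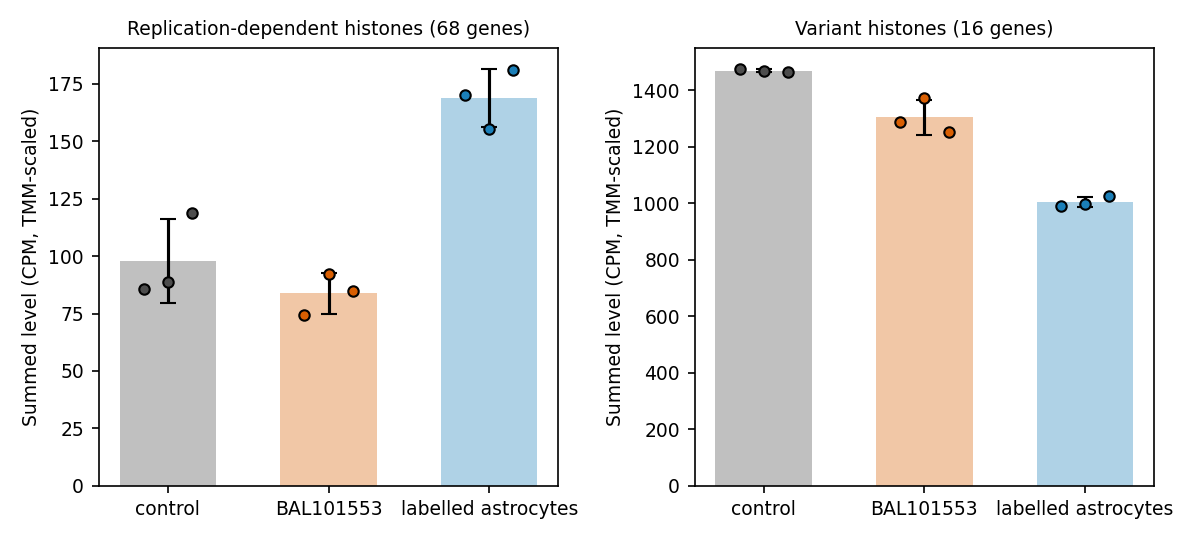
Summed level of the 68 replication-dependent (left) and 16 variant (right) histone genes in each library (points; vertical axes in CPM, TMM-scaled, starting at 0), with bars for the mean of 3 libraries and error bars for the SD. The left sum overlaps between control and BAL101553 and is higher in all 3 libraries labelled astrocytes, and the right sum stands at 1470 CPM in control, 1305 in BAL101553 and 1004 in labelled astrocytes.

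Lists of genes around histones were read against the shares of all genes called, 8.64% higher and 6.09% lower. Of 14 genes for histone transcription and mRNA processing found in the table (Symplk was not), 0 were called in BAL101553 against control and 3 had an unadjusted p under 0.05, with a median log2 fold change of 0.16. Slbp, whose protein binds the stem-loop, stood at 54.6, 61.4 and 57.8 CPM in control and at 66.8, 68.8 and 64.2 in BAL101553, without overlap, and its adjusted p was 0.138 (edgeR quasi-likelihood). Npat, the coactivator of histone genes, stood at 39.8 ± 5.69 and 45.9 ± 3.66 CPM, and Casp8ap2, which encodes a protein of the histone locus body, at 33.4 ± 4.99 and 40.5 ± 3.64 CPM. Srrt, which acts with the cap-binding complex, and Eri1, an exonuclease that trims the stem-loop, had adjusted p of 0.0557 and 0.140 by that test.

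Of 25 histone chaperone genes, 3 were called higher and 1 lower, 4 of 25 beside 14.7% of all genes. Ubn2, a subunit of the complex that lays down H3.3, rose from 21.01 ± 1.82 to 40.6 ± 3.604 CPM, a log2 fold change of 0.96 ± 0.12 with an adjusted p of 0.00728 (edgeR quasi-likelihood, Benjamini-Hochberg). Hjurp, the chaperone of the centromeric H3, rose from 5.83 ± 0.971 to 10.8 ± 0.986 CPM (log2 fold change 0.89 ± 0.18, adjusted p 0.0201, same test). Nap1l4, a chaperone of H2A and H2B, fell from 159.0 ± 18.7 to 112.8 ± 7.45 CPM (log2 fold change -0.49 ± 0.11, adjusted p 0.0279, same test). Of 30 S phase genes 0 were called higher and 1 was lower, the replication factor Gins2, which fell from 23.8 ± 1.65 to 17.3 ± 0.511 CPM (adjusted p 0.0356 by the quasi-likelihood test of edgeR). Rrm1, a subunit of ribonucleotide reductase, had an adjusted p of 0.0611 in it. The median over the 30 was -0.02, beside 0.02 over all genes tested. Leaving out control 1, control 3 or BAL101553 3 left 1 chaperone higher and 0 lower, and leaving out BAL101553 1 left 2 and 0. The S phase call was kept without BAL101553 2 and lost without any other single library.

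The second comparison set the labelled astrocytes against BAL101553, groups that share the treatment label and differ in labelled cell type; it uses the same BAL101553 libraries as the first. Here 27 members were tested and 18 were called (edgeR quasi-likelihood, Benjamini-Hochberg, 0.05), 66.7%, against 85.1% of 15314 genes, 46.3% higher and 38.9% lower. By class, 13 of 17 replication-dependent genes were called higher and 0 lower, and of 10 variants 2 were higher and 3 lower. These counts are partly set by the filter on low counts, which a gene passes if 1 group has enough: 4 of the 13, Hist3h2ba, Hist1h4j, Hist1h4k and Hist1h4c, and H2afy2 of the 2 variants, were under 10 counts in every BAL101553 library and so were tested only because they were high in labelled astrocytes. Hist1h1e, Hist1h3d and Hist1h2ad, also among the 13, were under 10 counts in BAL101553 1 and BAL101553 2. They had 14, 14 and 13 counts in BAL101553 3, so they too passed the filter only through the labelled astrocytes. With a filter of at least 1 count in any library, 7 replication-dependent genes were called lower, as given further on. At an unadjusted p of 0.05 the count was also 18, against 85.8% of all genes, 15 of them higher and 3 lower against 46.6% and 39.2%. All libraries of one group lay above those of the other for 18 members in the direction of labelled astrocytes, against 48.7% of genes, and for 3 in the other direction, against 39.2%. The median log2 fold change of the replication-dependent genes tested depended on the filter: it was 1.85 here, 0.80 with at least 10 counts in every library and 0.0003 with at least 1 count in any library, beside 0.18 over all genes tested here. That of the variants was -0.13.

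**Figure D4:**
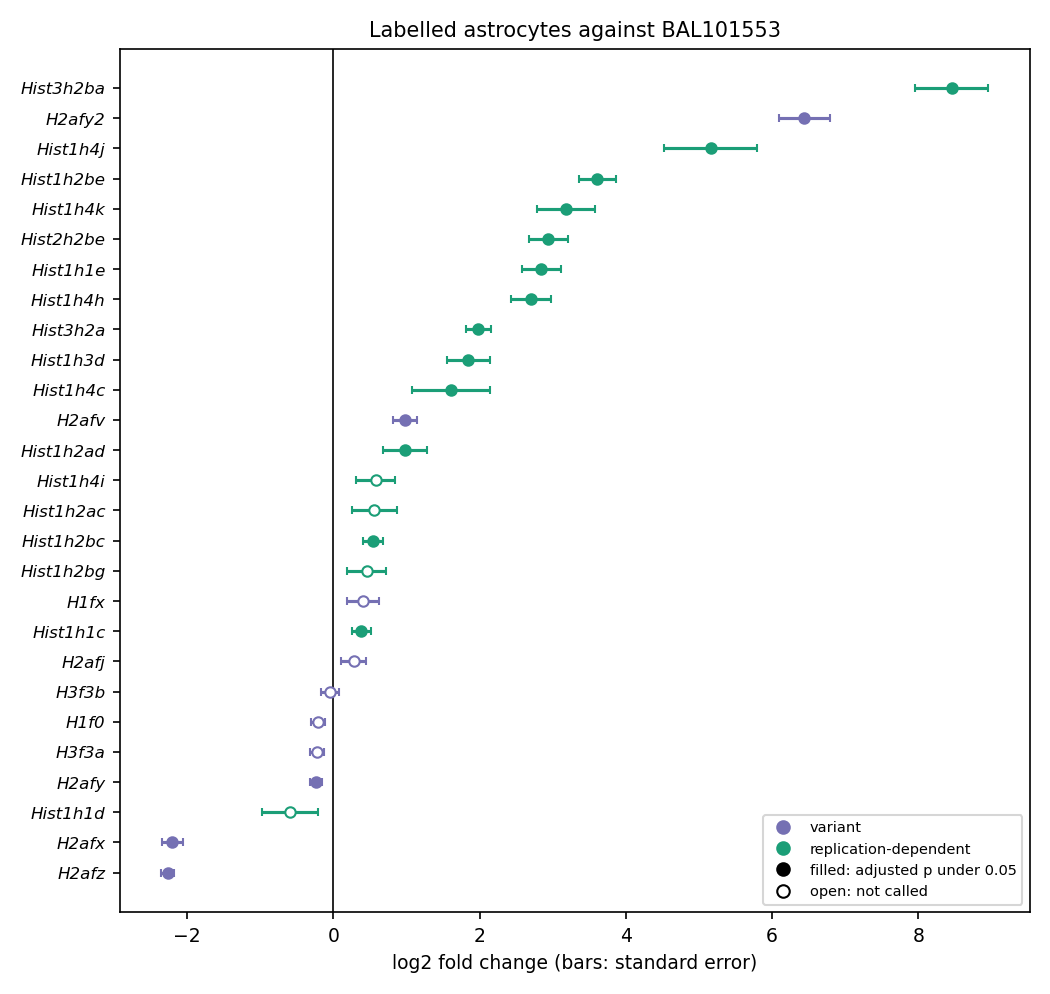
log2 fold change of each of the 27 members tested in labelled astrocytes against BAL101553 (horizontal axis, points, with bars for the standard error), sorted, with replication-dependent genes in green and variants in purple. Filled points passed an adjusted p of 0.05; 13 filled green points lie right of 0, and the lowest points are the variants H2afz and H2afx.

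The largest difference was that of Hist3h2ba, an H2B gene on chromosome 11 at 58948920 to 58949533, beside Hist3h2a. It had 0 counts in all 3 control libraries, 0, 0 and 1 in BAL101553, and 192, 165 and 121 in the labelled astrocytes, or 6.05, 5.83 and 4.66 CPM. Pooled, 478 counts against 1 gave a ratio of 498.5 with an exact 95% binomial interval, for counting error only, of 89.0 to 19730. The adjusted p was 1.32e-06 (edgeR quasi-likelihood), and it was called in all 26 alternatives that tested it. Hist3h2ba passed the filter only through the labelled astrocytes, so this p and these calls are not separate support. Of its 50-base positions, 22.1% occur in another member. Its neighbour Hist3h2a rose from 2.46, 3.17 and 2.73 to 11.9, 10.3 and 11.6 CPM, a log2 fold change of 1.98 ± 0.17 with an adjusted p of 9.97e-06 by the same test.

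Another 3 H2B genes were called higher. Hist2h2be stood at 3.54, 1.68 and 3.19 CPM in BAL101553 and at 21.6, 21.9 and 23.6 in labelled astrocytes (log2 fold change 2.94 ± 0.26, adjusted p 1.39e-05 by edgeR quasi-likelihood), and none of its 50-base positions were shared. Hist1h2be stood at 0.844, 1.13 and 1.42 CPM against 13.8, 12.02 and 17.2 (3.61 ± 0.25, adjusted p 3.15e-06, same test). Hist1h2bc rose less, with a log2 fold change of 0.54 ± 0.14 and an adjusted p of 0.00624 in this test. All libraries labelled astrocytes lay above all BAL101553 libraries for each of the 3 genes. The replication-dependent H2B genes summed to 44.9 ± 6.93 CPM in BAL101553 and 102.7 ± 7.75 in labelled astrocytes (SD, n = 3).

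Among H4 genes, Hist1h4k stood at 4, 7 and 3 counts against 53, 36 and 41 (log2 fold change 3.18 ± 0.39, adjusted p 0.000102 by edgeR quasi-likelihood), with 71.5% of its 50-base positions shared with other members. Hist1h4k and Hist1h4j passed the filter only through the labelled astrocytes, so their calls are not separate support. Hist1h4j had 0, 0 and 1 counts against 17, 18 and 13, a pooled ratio of 50.1 with an exact 95% counting interval of 8.57 to 2018. Control libraries had 7, 5 and 1 counts of Hist1h4j, so the low level was that of the BAL101553 libraries and of control 3. Hist1h4h, which ends 46 bases past its stem-loop, stood at 0.608, 0.587 and 0.784 CPM against 4.54, 3.43 and 5.43 (2.71 ± 0.28, adjusted p 3.15e-05, quasi-likelihood test of edgeR). Hist1h4i, at 2.23, 2.39 and 1.63 against 2.52, 2.97 and 4.05 CPM, did not pass, with an adjusted p of 0.0719 in it.

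Linker histone genes differed among themselves. Hist1h1c had a log2 fold change of 0.38 ± 0.13 with an adjusted p of 0.0235 (edgeR quasi-likelihood) and was called in 15 of 27 alternatives; the call was lost without BAL101553 1, BAL101553 3, astrocytes 1 or astrocytes 3 (log2 fold change 0.28 to 0.37), and with length and GC offsets (0.29, adjusted p 0.0826). Hist1h1d, at 0.439, 1.02 and 0.842 CPM in BAL101553 against 0.378, 0.530 and 0.655, had the only negative fold change of the 17, -0.59 ± 0.39 on the log2 scale, with overlap and an adjusted p of 0.184. Hist1h1e, named with its values already known, had 9, 9 and 14 counts against 74, 77 and 75. Hist1h1b, with 9, 16 and 12 counts against 7, 5 and 7, was too low to be tested. The other called genes, Hist1h3d, Hist1h4c and Hist1h2ad, likewise named after the fact, had log2 fold changes of 1.85, 1.604 and 0.98; Hist1h4c was called in 15 of 26 alternatives (0.94 to 2.49, adjusted p up to 0.176 across the edgeR, limma and DESeq2 fits) and Hist1h2ad in 16 of 26 (0.75 to 1.23, adjusted p up to 0.119). Hist1h1e, Hist1h3d, Hist1h4c and Hist1h2ad passed the filter only through the labelled astrocytes, so their calls are not separate support. Hist1h2bg was not called, at 0.46.

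Members that the filter had left out were called lower in 7 cases and higher in 1, the pseudogene Hist3h2bb-ps. With a filter of at least 1 count in any library, 71 members were tested and 26 were called, 16 higher and 10 lower, against 41.4% of 19216 genes called higher and 32.5% lower, and the replication-dependent median was again 0.0003. By annotated end, 8 of the 21 genes tested that ran past the stem-loop were higher and 1 was lower, and of the 19 that ended at it 2 were higher and 5 were lower. The 7 replication-dependent genes called lower were Hist1h2ab, Hist1h3b, Hist1h3c, Hist1h3e, Hist1h3g, Hist1h4n and Hist2h2bb, named after their values were seen. Hist1h3b, an H3 gene that ends 51 bases past its stem-loop, had 9, 7 and 14 counts in control, 13, 7 and 14 in BAL101553 and 1, 0 and 0 in labelled astrocytes, pooled 32.6-fold lower against BAL101553 with an exact 95% counting interval of 5.47 to 1325. Hist2h2bb had 7, 5 and 7, then 3, 2 and 4, then 0 counts in each library. The sum over the 12 replication-dependent H3 genes, 1.65 ± 0.215 CPM in BAL101553 and 1.81 ± 0.406 in labelled astrocytes, overlapped.

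Variants moved in both directions. H2afz fell from 290.9, 297.0 and 313.3 CPM in BAL101553 to 63.4, 61.2 and 67.7 in labelled astrocytes, a log2 fold change of -2.26 ± 0.09 with an adjusted p of 1.32e-07 (edgeR quasi-likelihood). H2afv, which encodes the other H2A.Z, rose from 24.2, 20.02 and 31.1 to 54.0, 45.8 and 53.0 CPM (0.98 ± 0.17, adjusted p 0.000717, same test). H2afx fell from 42.9, 62.5 and 53.2 to 11.9, 12.2 and 11.3 CPM (-2.20 ± 0.14, adjusted p 2.18e-06, same test). These 3 calls held in all 27 alternatives.

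The macroH2A genes also differed from each other. H2afy2 had 3, 6 and 2 counts in BAL101553 and 354, 302 and 322 in labelled astrocytes, a pooled ratio of 92.7 with an exact 95% counting interval of 51.6 to 186.3 and an adjusted p of 7.89e-07 (edgeR quasi-likelihood). It passed the filter only through the labelled astrocytes, so this p is not separate support. H2afy stood at 79.8, 90.4 and 86.9 CPM against 76.0, 71.0 and 76.8, with a log2 fold change of -0.23 ± 0.08 and an adjusted p of 0.0215 in that test, but it was called in 11 of 27 alternatives. Under total library size its change was -0.03, and the call was lost without BAL101553 3, astrocytes 1 or astrocytes 2 (-0.25 to -0.20).

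**Figure D5:**
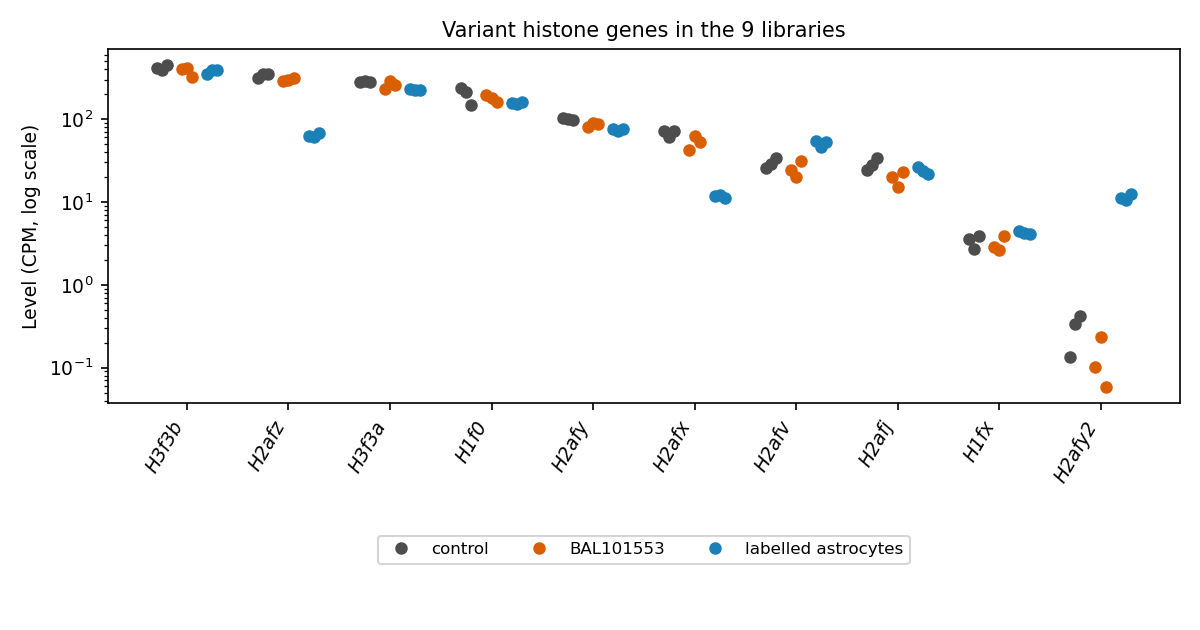
Level of each of the 10 variant histone genes that reached 10 counts in some library (vertical axis, CPM, log scale), with 1 point per library for control, BAL101553 and labelled astrocytes. H2afz and H2afx are lower and H2afv and H2afy2 higher in the labelled astrocytes than in both tumor groups, while the 9 libraries of H3f3a, and those of H3f3b, lie close together.

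The genes of H3.3 and the linker variants were not called. H3f3b stood at 405.3, 418.8 and 320.7 CPM against 353.0, 390.5 and 391.8, and H3f3a at 229.4, 288.1 and 258.3 against 233.0, 224.6 and 223.9, with adjusted p of 0.724 and 0.0597 (edgeR quasi-likelihood). The sign of H3f3b turned in 11 of 27 alternatives. Of the 27, H3f3b was called in 1, H3f3a in 2, H1f0 in 5 and H1fx in 4. H1f0 stood at 177.9 ± 15.99 against 157.7 ± 5.42 CPM (adjusted p 0.0590, same test) and H1fx at 3.13 ± 0.673 against 4.25 ± 0.1501 CPM (adjusted p 0.119, same test). H2afj, at 19.8, 15.1 and 22.94 against 26.6, 23.8 and 21.8 CPM, overlapped and had an adjusted p of 0.163 in it. The remaining variants are H2afy3, with 3 counts in all, and the germ cell genes H1fnt, H1foo, H2afb1, H2afb2 and H2afb3.

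The same lists were read here against 46.3% of all genes called higher and 38.9% called lower. All 30 S phase genes were called lower in labelled astrocytes than in BAL101553 by edgeR, with a median log2 fold change of -2.82. The S phase list summed to 366.1 to 372.1 CPM against 2152 to 2281. Of the histone transcription and processing genes, 1 was higher and 10 lower of 14, among them Slbp, which fell from 66.6 ± 2.31 to 15.02 ± 1.01 CPM (-2.18 ± 0.09, adjusted p 2.11e-07 by edgeR quasi-likelihood), and Casp8ap2, which fell from 40.5 ± 3.64 to 15.96 ± 1.70 CPM (adjusted p 1.61e-05, same test). Npat was not called, at 45.9 ± 3.66 against 42.2 ± 4.15 CPM. Of the chaperone genes 2 were higher and 18 lower of 25, and Hjurp fell from 10.8 ± 0.986 to 6.77 ± 0.133 CPM (adjusted p 0.00158, same test). Summed over the 68 replication-dependent genes, the level was 83.8 ± 9.05 CPM in BAL101553 and 168.9 ± 12.8 in labelled astrocytes, a ratio of 2.02 with no overlap.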

How the data were processed

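By the text of the study, tumor cells were sorted, libraries were made by the TruSeq stranded protocol and 50-base reads were sequenced. The labels call the control and BAL101553 material whole tissue, and how the labelled astrocytes were isolated is not known. Reads were mapped with TopHat to mm10 and counted per gene with HTSeq 0.6.1 (processing notes of the submitters). The study also names featureCounts. The deposited values are raw counts of reads for each gene in 9 libraries; the gene annotation and the strand setting of the counting are not given in the sources used here.

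Counts were analyzed with edgeR 4.0.16 in R 4.3.3: filterByExpr (minimum count 10), TMM scaling, the quasi-likelihood test between the 3 libraries of each group, two-sided, and Benjamini-Hochberg adjustment over all genes tested, with a threshold of 0.05. Levels are CPM scaled over all 9 libraries. Standard errors are the log2 fold change over the square root of F. Exon lengths, stem-loops and coordinates came from GENCODE vM21 (GRCm38). Groups came from the labels. Alternatives, 27 for each comparison, were DESeq2 1.42.0, the exact test, limma-trend (limma 3.58.1), other scalings and filters, all 9 libraries in 1 model, the replicate number as a block, offsets for length and GC content (mgcv 1.9.3), and libraries left out. Scripts were tested on simulated data. Intervals cover counting error only.

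The members and lists were chosen with earlier results of these data known. The genes named were every variant member; the replication-dependent genes called in BAL101553 against control (0), the 10 with the highest mean CPM over the 6 tumor libraries, and the 5 largest rises and 5 largest falls called without overlap in labelled astrocytes against BAL101553 (0 falls); and Slbp, Npat, Casp8ap2 and the 3 genes of lowest p of each list, of which 1 is not reported here. Members expressed mainly in germ cells were given as counts. Other genes were named after their values were seen.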

Additional observations from a re-analysis of the deposited data

How the results depend on the processing

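In BAL101553 against control, 0 members were called in 22 of 27 alternatives. DESeq2 and the exact test called 1 of 24 each, lower, beside 22.4% and 19.7% of all genes. The model over all 9 libraries called 3 of 31, lower, beside 19.6% of genes. Fits without libraries called 0 to 1, beside 0.00787% to 13.8% of genes. The median log2 fold change of the replication-dependent genes was -0.28 under total library size, -0.27 with at least 10 counts in every library, -0.28 over all 9 libraries and -0.52 to -0.10 without libraries. That of the variants was -0.071 under total library size, -0.078 with length and GC offsets and -0.25 to -0.12 without libraries. Signs turned for Hist1h2bc under total library size (0.031), with offsets (0.13) and with offsets and block (0.14); and, with offsets and then with offsets and block, for H1fx (0.50, 0.49), H2afz (0.053, 0.055) and Hist1h1d (-0.025, -0.067). Without libraries, values ran from -0.40 to 0.043 for H1f0, -0.43 to 0.12 for H1fx, -0.48 to 0.034 for H2afv, -0.25 to 0.036 for H3f3b, -0.52 to 0.010 for Hist1h1c, -0.18 to 0.42 for Hist1h1d, -0.27 to 0.29 for Hist1h2bc, -0.085 to 0.90 for Hist1h2be, -0.25 to 0.28 for Hist1h2bg and -0.65 to 0.029 for Hist2h2be. Of the lists, total library size called 1 processing gene higher and 0 S phase genes lower; without libraries, 1 to 3 chaperones were higher, 0 to 1 lower, and 0 to 1 S phase genes lower.

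In labelled astrocytes against BAL101553, 10 of 71 members were lower with at least 1 count in any library, beside 32.5% of genes. Without libraries 2 to 5 members were lower, where 78.4% to 85.8% of genes were called in either direction. The replication-dependent median was 2.03 under upper quartile scaling, 2.05 under total library size (where the median of all genes moved from 0.18 to 0.39), 0.00028 with at least 1 count, 0.80 with at least 10 in every library, 1.68 under limma-trend, 1.30 over all 9 libraries, 1.96 with offsets, 1.96 with offsets and block, and 1.20 to 2.06 without libraries. In the order upper quartile, total library size, at least 10 counts, offsets, and offsets with block, the variant median turned to 0.053, 0.080, 0.019, 0.14 and 0.15, and H3f3b to 0.14, 0.16, 0.18, 0.29 and 0.29; H3f3b was 0.0044 under DESeq2 size factors and 0.0045 under the DESeq2 test. H3f3a turned to 0.0062, 0.11 and 0.12 in the last 3 and H1f0 to 0.019 with at least 10 counts. Without libraries the variant median ran from -0.20 to -0.046 and H3f3b from -0.19 to 0.060; 0 to 1 processing genes and 1 to 2 chaperones were higher. Calls were gained by H3f3a (-0.32) and Hist1h1d (-0.89) without BAL101553 1, and by H1f0 (-0.27), H1fx (0.60) and H2afj (0.43) without BAL101553 3. Under upper quartile scaling, total library size and at least 10 counts in every library, calls were also gained by H1fx (0.58, 0.60, 0.63), H2afj (0.46, 0.48, 0.51) and Hist1h4i (0.76, 0.79, 0.81). Hist1h2bg (0.69) gained a call in the last, and H1f0 under limma-trend (-0.21) and with offsets (-0.27). Members called were 20 of 27 under upper quartile scaling and 21 of 27 under total library size, beside 84.9% and 84.6% of all genes.

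Summed levels under total library size were 186.8 CPM for replication-dependent genes in labelled astrocytes, and for variants 1354 in control and 1111 in labelled astrocytes; the latter was 1032 under DESeq2 size factors. Without a library the variant sums ran from 1497 to 1502 in control and from 979.1 to 998.5 in labelled astrocytes. The cause of these changes was not tested.

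Whether replicate numbers pair the libraries is not stated. Correlations of deviations between libraries of the same number were 0.155, -0.0076 and 0.154 for control and BAL101553. For BAL101553 and astrocytes they were -0.0013, 0.055 and 0.0519. Between libraries of different numbers they ran from -0.212 to 0.099 and from -0.0668 to 0.0145. With 3 libraries per group these values cannot settle whether the numbers pair them. With the replicate number as a block, 0 members were called in the first comparison (1371 of 12633 genes against 1860 without it). In the second, 16 of 27 members were called, 13 higher and 3 lower, beside 83.7% of all genes.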
